A study of Mus musculus with 4 samples.

Results

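The transcription factor gene Trp53, which encodes p53, and 9 of the direct target genes of p53 were followed in malignant cells sorted from MC38 tumors. The 10 genes form a chosen list (Trp53, Mdm2, Ccng1, Sesn1, Phlda3, Zmat3, Aen, Eda2r, Perp and Plk2) and were found by symbol among the 53379 gene identifiers of the count tables. Each was present once. MC38 comes from a colon adenocarcinoma of the mouse and was marked with GFP here, and 50000 cells were injected under the skin of C57BL/6 mice. Every mouse received anti-PD-1, an antibody against the inhibitory T cell receptor PD-1, at a dose chosen to be sub-optimal (100 µg on day 12, day 15, day 18 and day 22), so both groups are treated and no untreated tumor was compared. Tumor cells from animals labelled responder (2 libraries) were set against those labelled non-responder (2 libraries), and polyadenylated RNA was sequenced in bulk. How response was scored, and whether the libraries of a group are separate mice, is not given in the labels, so every p-value measures library-to-library spread that may be technical only. The tumor line is a single line, and a count per gene does not show which Trp53 alleles are transcribed.

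p53 is a sequence-specific activator that is held at low protein levels by the ubiquitin ligase Mdm2, itself a p53 target, so that the pair forms a negative feedback loop. DNA damage and other stress release p53 from Mdm2, largely through changes to the protein, and the level of Trp53 mRNA therefore does not report p53 activity. Active p53 induces genes of cell cycle arrest, DNA repair, metabolism and cell death by binding paired copies of a decamer motif near or within them.

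The promoter stretches of the members were read to show where that motif lies. RefSeq promoter windows (GRCm38.p6, 250 bases before to 50 after a start) were found for 8 of the 10 members, 10 windows in all. Zmat3 and Perp had none. An exact p53 consensus decamer, which is its own reverse complement so that a single search covers both strands, lay in the windows of 5 members: Trp53, Mdm2, Ccng1, Sesn1 and Aen. One was held by 8.36% of all 32851 windows. The windows of Phlda3, Eda2r and Plk2 held none, which says only that these letters are not in those windows. The 5 that did are printed 5′ to 3′ on the gene's own strand, with the match in capitals. Each stretch ends at the first annotated exon within its window or at the window's start site, whichever comes first. The Sesn1 stretch lies inside the gene, downstream of its first base (chr10:41809935). For Ccng1 the capitals cover the 20 bases of the pair described below, and only its second decamer is an exact match. For Aen the match lies inside an annotated exon and 30 bases around it are shown.
Trp53, chr11:69580109-69580358, plus strand: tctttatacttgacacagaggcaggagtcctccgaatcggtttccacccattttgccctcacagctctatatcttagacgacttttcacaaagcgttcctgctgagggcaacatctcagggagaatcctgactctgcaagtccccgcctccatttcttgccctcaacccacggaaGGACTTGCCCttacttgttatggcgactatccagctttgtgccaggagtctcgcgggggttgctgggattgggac
Mdm2, chr10:117710759-117711008, minus strand: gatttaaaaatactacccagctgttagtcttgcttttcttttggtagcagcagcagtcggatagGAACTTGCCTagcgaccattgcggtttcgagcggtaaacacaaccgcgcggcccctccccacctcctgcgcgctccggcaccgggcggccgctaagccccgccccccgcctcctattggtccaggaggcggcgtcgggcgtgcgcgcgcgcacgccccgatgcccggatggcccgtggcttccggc
Ccng1, chr11:40755312-40755536, minus strand: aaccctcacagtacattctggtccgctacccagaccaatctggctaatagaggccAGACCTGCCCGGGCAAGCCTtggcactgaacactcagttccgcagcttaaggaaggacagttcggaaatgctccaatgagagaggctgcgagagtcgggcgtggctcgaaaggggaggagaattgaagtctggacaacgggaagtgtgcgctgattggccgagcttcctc
Sesn1, second of its windows, chr10:41887189-41887438, plus strand: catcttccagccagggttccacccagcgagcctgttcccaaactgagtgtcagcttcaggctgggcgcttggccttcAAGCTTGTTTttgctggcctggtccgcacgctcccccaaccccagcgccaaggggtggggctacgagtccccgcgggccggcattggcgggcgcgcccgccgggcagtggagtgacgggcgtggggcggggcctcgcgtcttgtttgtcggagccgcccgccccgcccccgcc
Aen, chr7:78895927-78895956, plus strand: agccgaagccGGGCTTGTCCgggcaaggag
Only the Ccng1 window held an abutting pair of decamers, a site of 20 bases, under the limit of 2 mismatches, and it did so with 1 mismatch (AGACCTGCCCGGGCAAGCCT, chr11:40755462-40755481). Such a pair was found in 0.798% of all windows. The best pairs in the Trp53, Aen and second Sesn1 windows had 3 mismatches each, and the best in the Mdm2 window had 5. The well-known p53 sites of Mdm2 lie in its first intron, outside the window searched. These matches are a description of sequence, and no binding was measured.

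Total counts were 18447041 to 21754063 per library. The tested members had from 244 reads (Sesn1, responder replicate 2) to 5593 reads (Plk2, non-responder replicate 1) in a library. Of the markers of colon epithelium, from which the line was derived, all 8 (among them Epcam, Krt8, Krt18, Krt19, Cdx2 and Krt20) together reached 0.725 to 3.23 CPM per library (CPM, counts scaled to a common library size), and Krt20 had no read. Markers of other cells had the following levels, and none passed edgeR's test (at an unadjusted p under 0.05 there were 6 fibroblast markers and 1 endothelial marker, all lower in responders). DESeq2, a second test, called the fibroblast markers Col1a1, Postn, Pdgfrb, Dpt and Lum, all lower in responders, and no other of these markers. Their DESeq2 adjusted p ran from 1.3e-07 (Postn) to 0.047 (Lum), and 0.450% of all genes were called. Over 8 fibroblast markers the summed level was 1758 and 2347 CPM in non-responder replicates 1 and 2 against 1294 and 1339 CPM in responder replicates 1 and 2, and 7 of the 8 were lower in responders. Over 5 leukocyte markers it was 27.6 and 88.2 CPM against 1.83 and 27.8 CPM, and over 7 macrophage and monocyte markers 67.3 and 179 CPM against 12.3 and 64.5 CPM. Over 4 endothelial markers it was 24.1 and 27.9 CPM against 12.4 and 15.3 CPM. Of the 2 that were tested, Pecam1 was lower (log2 fold change -1.27, SE 0.33) and Cdh5 higher (0.31, SE 0.50) in responders. The fibroblast and endothelial sums separated the groups. Dcn, the largest part of the fibroblast sum, overlapped between the groups (999 and 1588 CPM against 874 and 1085 CPM). Pecam1 was the largest part of the endothelial sum. The macrophage and monocyte sums did so by a narrow margin (67.3 CPM in non-responder replicate 1 against 64.5 CPM in responder replicate 2). The leukocyte sums overlapped narrowly (27.6 against 27.8 CPM in the same libraries). Of single markers, Col1a1 (a collagen chain) had 240 and 278 CPM against 112 and 92.8 CPM, and Ptprc (CD45) 5.94 and 22.6 CPM against 0.644 and 6.91 CPM. Their part in the differences below was not tested, and in bulk RNA fewer cells of a type and less RNA per cell cannot be told apart. Bulk RNA also does not show which cells carried these transcripts, the tumor cells included.

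None of the 9 members with reads differed between responder and non-responder tumor cells by edgeR's quasi-likelihood test, with p adjusted over all genes (0 of 9, where 0% of 13792 genes tested were called). Their adjusted p ran from 0.728 to 0.982. At an unadjusted p under 0.05 there were 2 members, Aen and Sesn1, and 6.21% of all genes. DESeq2 and limma-voom also called 0 of the 9, DESeq2 with 0.450% of all genes called and limma-voom with 0%, and 2 members had an unadjusted p under 0.05 in DESeq2. The members did not shift together: 5 were higher and 4 lower in responders, and the median of their log2 fold changes was 0.07, beside a median of -0.01 over all genes. The groups did not overlap in 4 of the 9 (Trp53 and Aen higher, Ccng1 and Sesn1 lower), or 44.4%, beside 36.5% of all genes.

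**Figure D1:**
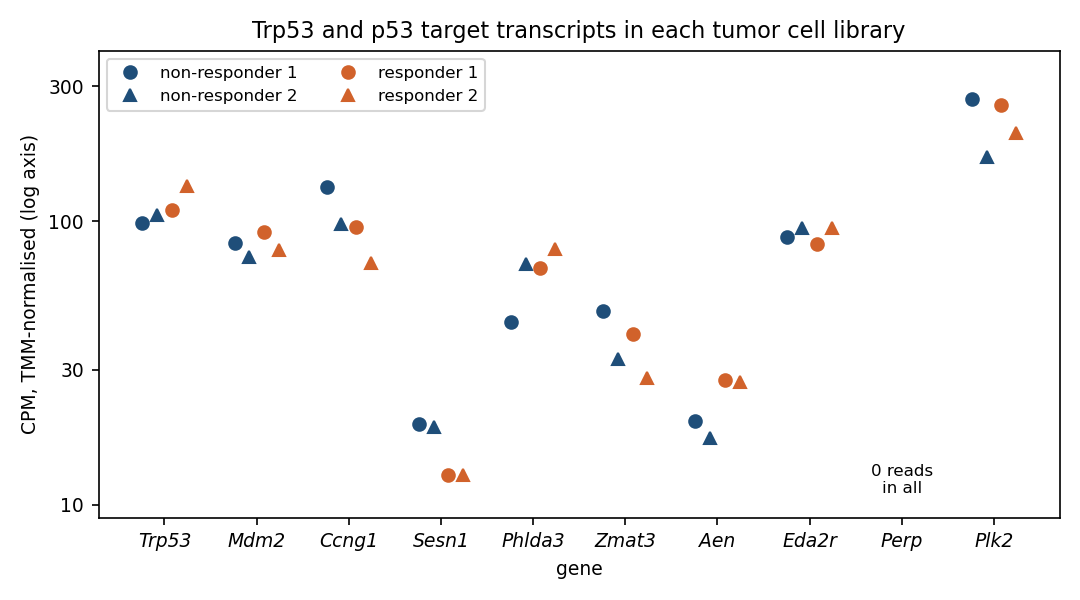
Level of each member in each library, in TMM-normalised CPM on a log axis; circles are replicate 1, triangles replicate 2, blue non-responder and orange responder. Sesn1 and Aen separate the groups with little spread inside them, and Perp has 0 reads in all 4 libraries. Plk2 and Phlda3 spread most inside the non-responder group, and Zmat3 and Ccng1 spread widely inside both groups.

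Trp53 itself (ENSMUSG00000059552, chr11:69580359-69591873 on mm10, plus strand) was well expressed in both groups. It had 98.4 and 105 CPM in non-responder replicates 1 and 2, and 110 and 133 CPM in responder replicates 1 and 2. Both responder libraries lay above both non-responder libraries, but the gap between the groups was smaller than the difference between the responder libraries. The mean was 102 ± 4.91 CPM (SD, n = 2) in non-responders and 122 ± 16.2 CPM (SD, n = 2) in responders, 1.19-fold higher with a 95% interval of 0.895 to 1.59-fold (log2 fold change 0.25, SE 0.18, edgeR adjusted p = 0.858). Removing 1 library moved it to between 0.11 (responder replicate 2 removed) and 0.38 (responder replicate 1 removed). The processed pseudogene Trp53-ps had 0 reads in all 4 libraries, although reads that fit both copies equally well would not have been counted for either. Over the 4 libraries, the centred log2 CPM profiles most like that of Trp53, among 10048 genes with a mean of at least 5 CPM, were those of Cmtr1, an mRNA cap methyltransferase (root-mean-square difference 0.0062), Srsf10, a splicing factor (0.0077), and St3gal1, a sialyltransferase (0.010). With 4 libraries many genes share a profile closely, and the targets were not among the nearest: Eda2r ranked 1824th and Mdm2 3933rd.

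Neither of the feedback genes, Mdm2 and Ccng1, passed the test. Mdm2 (ENSMUSG00000020184, chr10:117688875-117710758, minus strand) had 83.7 and 75.2 CPM in non-responders and 91.5 and 79.1 CPM in responders. The groups overlapped, and the difference of 1.07-fold (95% interval 0.816 to 1.42-fold, edgeR adjusted p = 0.943) was within the spread of the libraries. Ccng1 (ENSMUSG00000020326, chr11:40748552-40755311, minus strand), which encodes cyclin G1, a regulator of Mdm2, had 132 and 97.8 CPM in non-responders and 95.6 and 71.5 CPM in responders. Both responder libraries were lower, by a narrow margin between non-responder replicate 2 and responder replicate 1. The mean was 115 ± 24.1 against 83.6 ± 17.1 CPM (SD, n = 2 each), 1.37-fold lower (log2 fold change -0.46, SE 0.22, edgeR adjusted p = 0.796). With 1 library removed that value was -0.22 (non-responder replicate 1 removed), -0.26 (responder replicate 2), -0.66 (non-responder replicate 2) or -0.69 (responder replicate 1). Ccng1 is the member whose promoter holds the paired decamer printed above.

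Among members of cell death, Aen, which encodes a nuclease that promotes apoptosis, showed the clearest separation. Aen (ENSMUSG00000030609, chr7:78895854-78911209, plus strand) had 19.7 and 17.2 CPM in non-responders and 27.5 and 27.1 CPM in responders. The responder libraries were nearly equal and both were above both non-responder libraries. The mean was 18.5 ± 1.76 against 27.3 ± 0.317 CPM (SD, n = 2 each), 1.48-fold higher (95% interval 1.09 to 2.002-fold, log2 fold change 0.56, SE 0.19, unadjusted p = 0.0180 and adjusted p = 0.728 with edgeR). By p it ranked 335th of 13792 genes. Phlda3 (ENSMUSG00000041801, chr1:135766119-135769136, plus strand), an inhibitor of Akt signalling, had 44.3 and 70.8 CPM in non-responders and 68.3 and 80.1 CPM in responders. Non-responder replicate 1 was low and the other libraries were near each other. The log2 fold change of Phlda3 was 0.37 (SE 0.24, edgeR adjusted p = 0.853). With non-responder replicate 1 removed it was 0.07. With non-responder replicate 2 removed it was 0.74 and passed the test (edgeR adjusted p = 0.0421), the lone non-responder library being assumed to vary like the responders. In that setting 516 of 14259 genes, or 3.62%, were called. No other value of a member passed under any alternative run. With responder replicate 1 or 2 removed the Phlda3 value was 0.48 or 0.25.

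Eda2r (ENSMUSG00000034457, chrX:97333840-97377216, minus strand), a receptor of the tumor necrosis factor family that binds ectodysplasin, was the steadiest member. It had 88.2 and 94.5 CPM in non-responders and 83.2 and 94.9 CPM in responders. The groups overlapped fully, and the highest library was 1.14 times the lowest (log2 fold change -0.04, SE 0.17, edgeR adjusted p = 0.982). Perp (ENSMUSG00000019851, chr10:18845020-18857073, plus strand), a membrane protein of cell death and of desmosomes that is also driven by the p53 relative p63 in epithelia, had 0 reads in every library, which allows at most 0.135 to 0.157 CPM per library (3 counts, counting error only). No comparison of Perp between the groups could be made. Of the p53 relatives, Trp73 also had 0 reads in all 4 libraries, and Trp63 had 2.51 and 5.38 CPM in non-responders and 2.43 and 2.25 CPM in responders (log2 fold change -0.75, SE 0.44, edgeR adjusted p = 0.836).

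Sesn1, which encodes a sestrin that restrains the growth kinase complex mTORC1 and limits oxidative damage, had the lowest log2 fold change of the members. Sesn1 (ENSMUSG00000038332, chr10:41809935-41908424, plus strand) had 19.2 and 18.9 CPM in non-responders and 12.7 and 12.8 CPM in responders. The libraries of each group were almost equal, and both responder libraries were below both non-responder libraries. Closeness of 2 libraries is a poor measure of spread, and the fitted SE, which shares spread over genes, is wider. The mean was 19.1 ± 0.244 against 12.8 ± 0.0235 CPM (SD, n = 2 each), 1.49-fold lower (log2 fold change -0.58, SE 0.20, unadjusted p = 0.0221 and adjusted p = 0.744 with edgeR). It ranked 406th of 13792 genes by p. The log2 fold change lay between -0.59 and -0.56 with any single library left out, which follows from the closeness of the libraries and adds no separate evidence. The fibroblast, the endothelial, and the macrophage and monocyte marker sums were also lower in both responder libraries, the last by a narrow margin. Single markers were lower without overlap in 6 of 8 fibroblast and 1 of 7 macrophage and monocyte markers. Of the 2 endothelial markers tested it was 1, and 17.7% of all genes were lower without overlap. Their part in the Sesn1 difference was not tested. Reads shared with 9930024M15Rik, a gene model that overlaps Sesn1 on the same strand, were not assigned, and that model had 1 to 7 reads per library.

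The remaining members, regulators of growth and of RNA, varied more inside the groups than between them. Plk2 (ENSMUSG00000021701, chr13:110395046-110400844, plus strand), a polo-like kinase of centriole duplication, had 270 and 168 CPM in non-responders and 257 and 204 CPM in responders. The non-responder libraries were its highest and its lowest (log2 fold change 0.07, SE 0.26, edgeR adjusted p = 0.974). Removing non-responder replicate 1 gave 0.46, and removing non-responder replicate 2 gave -0.23. Zmat3 (ENSMUSG00000027663, chr3:32334792-32366014, minus strand), a zinc finger protein that binds RNA, had 48.3 and 32.7 CPM in non-responders and 40.1 and 28.1 CPM in responders. The groups interleaved (log2 fold change -0.25, SE 0.25, edgeR adjusted p = 0.902). Removing non-responder replicate 1 gave 0.07 for Zmat3, and removing responder replicate 1 gave -0.53.

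**Figure D2:**
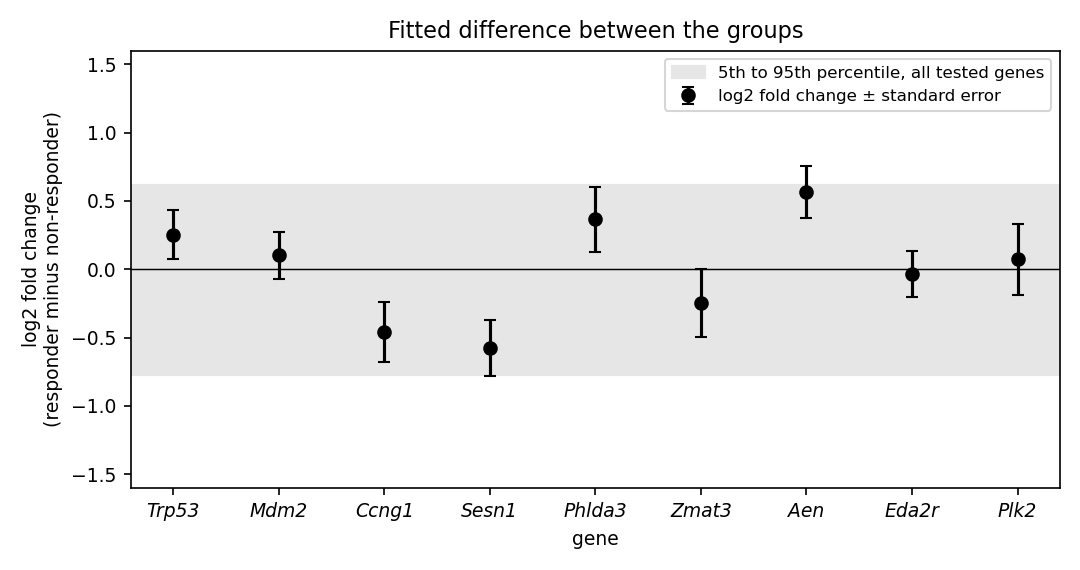
Log2 fold change of each tested member, responder minus non-responder, with its standard error from the edgeR fit; the grey band spans the 5th to 95th percentile of all 13792 tested genes (-0.77 to 0.62). All 9 points lie inside the band, with Aen at 0.56 and Sesn1 at -0.58 nearest to its edges.

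**Figure D3:**
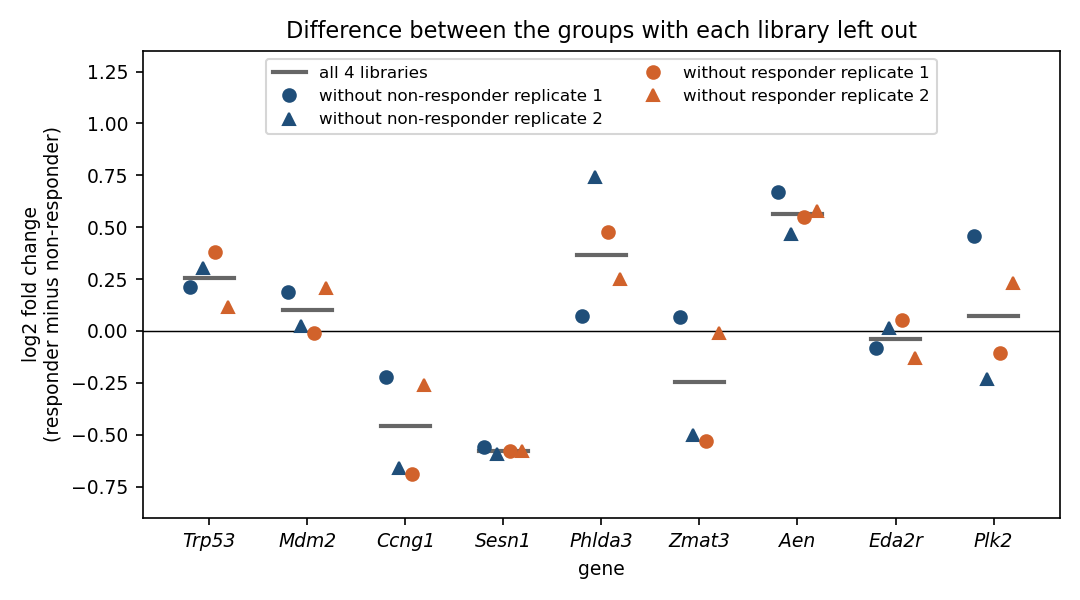
Log2 fold change of each tested member (y axis) with all 4 libraries (grey bar) and with each library left out (points, coloured by the group of the library removed). Sesn1 stays between -0.59 and -0.56 and Aen between 0.47 and 0.67, while Plk2 moves from -0.23 to 0.46.

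Levels could be compared between genes per exonic kilobase, as RPKM, over the 4 libraries. Plk2 (37.5 to 60.2 RPKM) and Phlda3 (28.4 to 51.4 RPKM) were the most abundant, followed by Ccng1 (20.4 to 37.6 RPKM) and Trp53 (24.3 to 32.9 RPKM). In each of those neighbouring pairs, and between Phlda3 and Ccng1, the ranges overlapped. Mdm2 (14.8 to 18.0 RPKM) and Eda2r (14.1 to 16.1 RPKM) overlapped each other and lay below every Trp53 value. Sesn1 (3.20 to 4.83 RPKM), Aen (2.97 to 4.74 RPKM) and Zmat3 (2.46 to 4.22 RPKM) could not be ordered among themselves and lay below every Eda2r value, and Perp was at 0. The length used is that of all annotated exons together, 11435 bases for Zmat3, so RPKM understates a gene whose cells use a short isoform.

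Other p53 targets, taken from lists by role, were as evenly divided in direction as the members. Counts were available for 59 further targets, of which 55 were tested: 27 were higher and 28 lower in responders, with a median log2 fold change of -0.01, equal to that of all genes. The lists were chosen with earlier results of these data known, and the following shares were not tested. Groups did not overlap for 14 higher and 11 lower of the 55 targets, larger shares than the 18.8% and 17.7% of all genes. None passed edgeR's test. At an unadjusted p under 0.05 in edgeR there were 4 higher and 4 lower of the 55, also larger shares than the 2.57% and 3.63% of all genes. The higher ones included Plk3, Btg2 and Epha2, and the lower ones Trp53i11, Ddit4, Cpt1c and Lpin1; Btg2, Epha2, Ddit4 and Cpt1c are named because of these values.

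The lists by role include the members, and of all 13792 genes 6748 were higher and 7044 lower in responders. The arrest and growth list, which holds Ccng1, Zmat3 and Plk2, had 8 of 14 tested genes higher (median 0.16). Cdkn1a, which encodes the cell cycle inhibitor p21 and is the best known p53 target, had 62.0 and 59.7 CPM in non-responders and 66.1 and 55.1 CPM in responders. The groups overlapped and the ratio of responder to non-responder was 0.996 (95% interval 0.757 to 1.31, edgeR adjusted p = 0.997). Plk3, a stress-responsive polo-like kinase, had 12.5 and 13.1 CPM against 22.4 and 19.5 CPM (log2 fold change 0.71, SE 0.21, edgeR adjusted p = 0.632). The cell death list, which holds Aen, Eda2r, Phlda3 and the untested Perp, had 11 of 17 higher (median 0.16). Bax, the mitochondrial pore-forming effector, had 19.6 and 25.9 CPM in non-responders and 28.4 and 28.9 CPM in responders (log2 fold change 0.33, SE 0.20, edgeR adjusted p = 0.836). Bbc3, which encodes the BH3-only protein Puma, had 2.99 and 8.12 CPM against 6.64 and 10.2 CPM, with overlapping groups (log2 fold change 0.59, SE 0.49). Trp53i11 had 117 and 150 CPM against 89.1 and 72.9 CPM, both responder libraries lower (log2 fold change -0.72, SE 0.20, edgeR adjusted p = 0.631).

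The DNA repair list was lower in 7 of 8 tested genes (median -0.14), with Xpc, a damage sensor of nucleotide excision repair, at 26.7 and 21.5 CPM against 19.7 and 18.1 CPM (log2 fold change -0.35, SE 0.20). The metabolism and oxidative stress list, which holds Sesn1, had 8 of 14 lower (median -0.11). Lpin1, a phosphatidate phosphatase, had 27.3 and 31.6 CPM against 17.2 and 17.7 CPM (log2 fold change -0.76, SE 0.19, edgeR adjusted p = 0.586), and the glutaminase gene Gls2 had 7.87 and 8.83 CPM against 10.3 and 10.9 CPM (log2 fold change 0.34, SE 0.24). The secreted and surface list had 7 of 11 lower (median -0.15). Its lower gene of smallest p, Tmem150a, had 14.5 and 13.4 CPM against 9.42 and 10.2 CPM (log2 fold change -0.51, SE 0.22).

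Regulators of p53 had 8 of 20 higher and 12 lower at a median of -0.02. Mdm4, the Mdm2 relative that masks the activation domain of p53, had 129 and 141 CPM in non-responders and 137 and 159 CPM in responders, with overlapping groups (log2 fold change 0.13, SE 0.18, edgeR adjusted p = 0.933). The checkpoint kinase gene Chek1 had 28.9 and 26.4 CPM against 41.8 and 43.9 CPM (log2 fold change 0.63, SE 0.17, edgeR adjusted p = 0.631). Trp53inp1, both a target and a cofactor of p53, had 6.13 and 8.48 CPM against 3.72 and 3.87 CPM (log2 fold change -0.94, SE 0.31, edgeR adjusted p = 0.728). Genes that p53 lowers indirectly, through p21 and the DREAM repressor complex, were higher in 14 of 16 cases, at a small median of 0.11. Of all 13792 genes, 6748 were higher. The groups did not overlap for 2 higher genes and 1 lower gene of the 16, beside 18.8% and 17.7% of all genes. The summed level was 2749 and 2477 CPM in non-responders against 2580 and 3100 CPM in responders. With responder replicate 2 removed, 9 of the 16 were higher (median 0.0048), and with non-responder replicate 2 removed, 11 (median 0.037). With non-responder replicate 1 removed, 14 were higher (median 0.20), and with responder replicate 1 removed, 13 (median 0.30). Their leading genes were Mybl2 (log2 fold change 0.73, SE 0.16, edgeR adjusted p = 0.455) and, in the other direction, Bub1b (log2 fold change -0.18, SE 0.18). No gene of these lists passed edgeR's test.

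**Figure D4:**
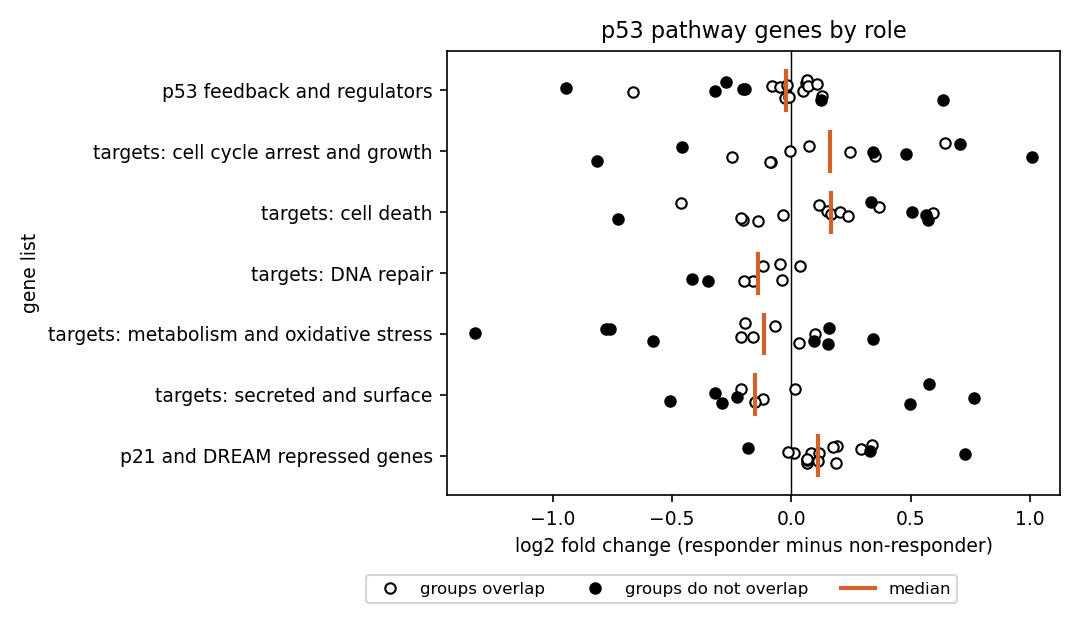
Log2 fold change, responder minus non-responder, of each tested gene of the p53 lists by role; filled points are genes whose groups do not overlap, open points those that overlap, and orange bars list medians. The medians run from -0.15 to 0.16, and each list has genes on both sides of 0.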

How the data were processed

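Bulk RNA-seq of sorted MC38 tumor cells was compared between 2 responder and 2 non-responder libraries, grouped and numbered by their titles. The deposited values are raw counts per gene, 1 file per library: reads were counted by the authors with featureCounts 1.6.1, reverse-stranded (setting 2), on Ensembl release 91, per the file headers. STAR and mm10 are named in the submitters' processing notes. Multi-mapping reads were not requested, so genes with close copies can be undercounted. Of 53379 identifiers 53274 matched a symbol.

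All 4 libraries were fitted with edgeR 4.0.16 (R 4.3.3): filterByExpr with a minimum count of 10 (13792 genes), TMM factors of 0.952 to 1.036, a robust quasi-likelihood test on group, and Benjamini-Hochberg adjustment over all genes at 0.05. The common biological coefficient of variation was 0.216. Standard errors are the size of a log2 fold change over the square root of its F statistic. CPM and RPKM were computed from the counts with those factors. The profile likeness to Trp53 used log2 of CPM plus 0.1. In simulated counts, run on 13546 genes for this comparison, 27 of 100 genes changed 2-fold and 94 of 100 changed 4-fold were called, along with 6 unchanged genes. No pair of libraries was near-identical (chi-square per degree of freedom 24.7 to 74.0).

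Named genes are the members, the gene of smallest p in each direction of each list with a mean of at least 5 CPM, and Cdkn1a, Bax, Bbc3, Mdm4, Trp63, Trp73, Col1a1 and Ptprc; others are marked in the text, and some genes meeting this rule are not reported here. The members and lists were chosen with earlier results of these data known. Trp53aip1 matched no identifier. Removing each library for the p21 and DREAM list was added after seeing the data. The 13 alternatives covered other scaling factors, DESeq2 1.42.0, limma-voom (limma 3.58.1), the low-count filter, mitochondrially encoded genes, the replicate number as a block and each library left out. Lists of T and NK cells and of epidermis summed to at most 1.70 and 13.8 CPM.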

Additional observations from a re-analysis of the deposited data

How the results depend on the processing

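Of 117 member values (9 members under 13 alternatives) 110 kept their direction and their side of the threshold. Sesn1, Aen, Ccng1, Trp53 and Phlda3 kept their direction under every alternative run, and the other members turned only with a library left out. With each library left out in turn, log2 fold changes ran from -0.13 to 0.053 for Eda2r (-0.04 with all libraries; 0.013 without non-responder replicate 2), from -0.0084 to 0.21 for Mdm2 (0.10), from -0.23 to 0.46 for Plk2 (0.07; -0.11 without responder replicate 1) and from -0.53 to 0.066 for Zmat3 (-0.25). The number of members called was 0 under all alternatives except without non-responder replicate 2 (range 0 to 1), where it was Phlda3. The number of genes called, 0 of 13792 with edgeR (856 at an unadjusted p under 0.05), was 62 with DESeq2, 212 with no low-count filter and 41 to 516 with a library left out (516 without non-responder replicate 2), and 0 with limma-voom; the cause was not tested. With the replicate number as a block, 32 genes and 0 members were called, and the smallest adjusted p of a member was 0.231 (Aen). The numbers share no stated source, with 2 pairs only: replicate 2 minus replicate 1 correlated at r = 0.383 between the groups across 10054 genes, which are not independent, and had the same sign in both groups for 8 of 9 members. In simulated counts of this depth and spread 27 of 100 genes changed 2-fold were called, and the largest difference of a member was 1.49-fold (Sesn1).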
